A study of Mus musculus with 4 samples.

Results

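The nucleolar ribosome biogenesis factors described here are 42 proteins that make, modify and fold ribosomal RNA and assemble it with ribosomal proteins in the nucleolus. The members were taken by gene symbol, by a rule that uses no measured value but was written with earlier results of these data known, and all 42 have a row among the 24063 gene symbols of the count tables. They were measured in 4 poly-A RNA libraries from hepatocellular carcinomas of mice whose strain is given as C57BL/6 and, in the sample titles, as C57BL6/J. The tumours share 1 genotype label, overexpression of MYC;PMEPA1. The series states that the models overexpress MYC and PMEPA1 together, and the labels give hydrodynamic delivery through the tail vein, which brings DNA mainly into hepatocytes, and no further treatment was given. The tumours carry the numbers 1, 5, 9 and 10. There is 1 group and no control, so no comparison between conditions was possible, and the spread between the 4 tumours was the measurement. A passage number of 8 to 10, usual for cultured cells, stands beside the tumour label, and separate animals are not stated, so p-values measure only the spread between these samples, which may be technical. The labels do not give the age of the animals, the promoter that drives the delivered genes or the species of the delivered sequences.

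Ribosomal RNA is transcribed in the nucleolus as a long precursor. Small nucleolar ribonucleoproteins (snoRNPs) of the box C/D class methylate it and those of the box H/ACA class convert uridines in it to pseudouridine. The small subunit processome folds and cleaves the part that becomes the 40S subunit, while other factors, among them the PeBoW complex, build the 60S subunit. MYC is a transcription factor known to drive the genes of this pathway, and enlarged nucleoli are an old sign of rapidly growing tumour cells. A canonical MYC site is the E-box, whose letters read the same on both strands.

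The E-box was looked for in the promoters because the tumours carry a MYC label. RefSeq promoter windows on GRCm38.p6, of 250 bases before and 50 bases after the start of transcription, were found for 37 of the 42 genes, and Npm1, Fbl, Rrs1, Bop1 and Rrp12 were not matched. The letters CACGTG stood in the windows of 7 of these 37 genes (18.9%), against 1155 of 9784 expressed genes with a window (11.8%) and 2187 of 27025 genes in all (8.09%). The variant CACGCG, searched on both strands and added after the values were seen, stood in 12 of the 37 (32.4%), against 19.5% of expressed genes and 10.5% of all genes. The 7 stretches of 30 bases that hold CACGTG are shown 5′ to 3′ on the strand of the gene, with the motif in capitals. The stretches after the start were added after the values were seen.
Nop2: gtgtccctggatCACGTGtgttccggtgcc
Utp18: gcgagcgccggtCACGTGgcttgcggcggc
Pes1: ccctaggcagggCACGTGcgggaggaagta
Wdr43: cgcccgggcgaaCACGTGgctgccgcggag
Nle1: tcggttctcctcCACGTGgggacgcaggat
Tsr1: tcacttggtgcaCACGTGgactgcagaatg
Utp20: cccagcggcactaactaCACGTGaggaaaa
In Nop2 (chr6:125131811-125131840, plus strand) and Utp18 (chr11:93885769-93885798, minus strand) the motif began 60 and 20 bases before the start. In Pes1 (chr11:3963965-3963994, plus), Wdr43 (chr17:71616220-71616249, plus), Nle1 (chr11:82908355-82908384, minus), Tsr1 (chr11:74898092-74898121, plus) and Utp20 (chr10:88826765-88826794, minus) it lay at bases 3, 18, 24, 25 and 38 after the start, counted from 1 at the first base after it. Positions are from the start that the RefSeq promoter table uses, which for Wdr43 and Nle1 lies inside the annotated gene and not at its outer end.
The 250 bases before the start of Nop2 (chr6:125131633-125131882, plus strand), the gene with the highest level per kilobase among those with the motif before the start, are given as an example of a whole upstream region, with the E-box in capitals.
Nop2: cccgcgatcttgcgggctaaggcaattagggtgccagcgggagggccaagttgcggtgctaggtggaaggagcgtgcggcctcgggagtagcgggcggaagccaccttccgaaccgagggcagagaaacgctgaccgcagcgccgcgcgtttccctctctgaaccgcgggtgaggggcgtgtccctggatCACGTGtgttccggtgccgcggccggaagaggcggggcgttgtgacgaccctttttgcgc
A match is a description of the letters, and a window without one says nothing about binding elsewhere in the gene.

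The libraries held 41547938 to 51939623 gene counts, and the 42 factors had 682 to 138782 counts each per library, so counting error was at most 3.83% of a value. Values are in counts per 1000000 (CPM), scaled for library composition by TMM. Under scaling to totals only, the median gene would shift by 0.14, 0.04, 0.13 and -0.32 (log2) in tumours 1, 5, 9 and 10, and differences between tumours are given relative to TMM. The hepatocyte markers were present, with 10 of 10 expressed at a mean of at least 1 CPM and a summed level of 16009, 17989, 22179 and 38777 CPM in tumours 1, 5, 9 and 10. Mouse Myc itself had 4.86, 6.84, 8.58 and 7.40 CPM in tumours 1, 5, 9 and 10. Per kilobase it averaged 2.88 ± 0.648 CPM, against 6.69 for the lowest of the 42 factors. Its reads may miss a delivered sequence of another species.

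The 42 factors were abundant and, with TMM scaling, varied little. They took 1.197, 1.018, 0.940 and 0.737% of the gene counts in tumours 1, 5, 9 and 10. TMM does not enter these shares, which were lowest in tumour 10. Within them, Ncl, Npm1, Nolc1 and Ddx21 together held 0.590, 0.465, 0.448 and 0.320% of the gene counts. The shares of the box H/ACA core and the PeBoW complex were lowest in tumour 9 instead. Per kilobase of transcript, 40 of the 42 lay above the median of the expressed genes, and their median level was 56.2 CPM per kilobase, against 9.65 for all 13129 expressed genes. The median SD of log2 CPM over the 4 tumours was 0.21 for the factors, against 0.45 for all expressed genes and 0.35 for the 6711 genes at least as abundant as the lowest factor. Of the 42, 34 lay under the median SD of the expressed genes, a rule that takes 50% of those genes. Highest and lowest tumour differed at least 1.5-fold for 15 of the 42 factors, against 76.8% of the expressed genes. They differed at least 2-fold for 8 of the 42, against 49.9%. With total counts alone the median SD of the factors was 0.35, against 0.49 for all expressed genes. Without tumour 10 the medians were 0.23 and 0.32.

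**Figure D1:**
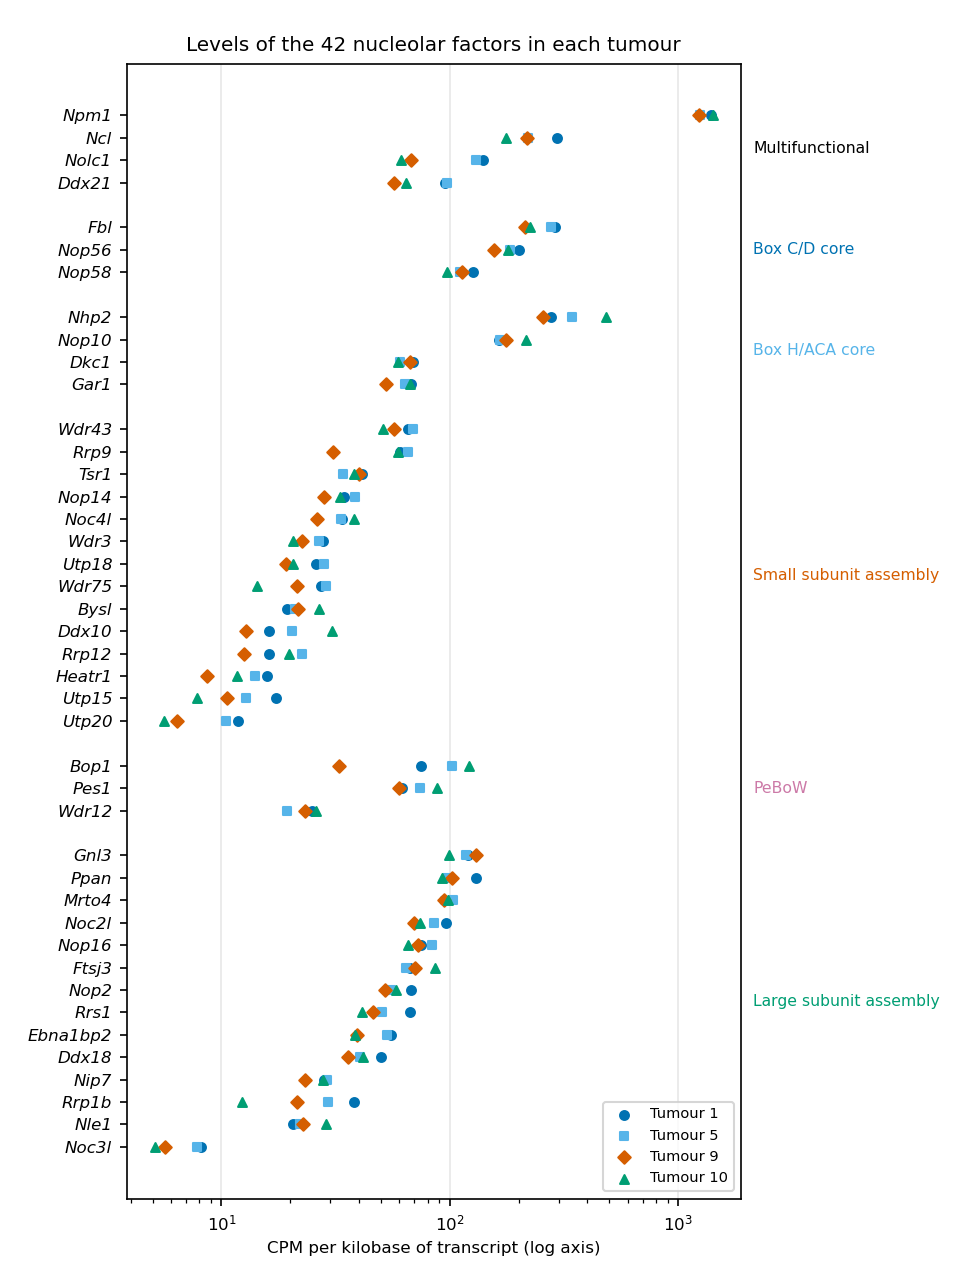
Level of each of the 42 factors in CPM per kilobase of transcript (log axis), with 1 symbol for each of the 4 tumours and the genes grouped by role. Npm1 stands highest in all 4 tumours and Noc3l has the lowest mean (6.69 CPM per kilobase); the symbols of most genes lie close together, while those of Bop1, Rrp1b and Ddx10 lie far apart.

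All 42 factors varied more between the tumours than counting error allows, by a Poisson heterogeneity test with Benjamini-Hochberg adjustment over all expressed genes, but so did 98.7% of those genes. With 5% of technical variation added to the model, 38 of the 42 (90.5%) passed, against 94% of expressed genes. Mrto4, Dkc1, Npm1 and Tsr1 did not pass. When a single tumour was set against the remaining 3 with edgeR's quasi-likelihood method, and p-values were adjusted across every gene and tumour, 0 of 42 passed in each tumour, as did 0% of the 13129 expressed genes. With 1 library in an arm and no expressed gene called, this does not show that the factors were alike in the tumours. Without adjustment, p-values under 0.05 were found for 0, 0, 2 and 4 of the 42 in tumours 1, 5, 9 and 10, against 0.716, 0.922, 5.66 and 22.1% of expressed genes. The DESeq2 Wald test also took 0 of the 42 in each tumour, against 0.221, 0.358, 2.52 and 10.4% of expressed genes. For each of the 42 factors the tumours thus differed by more than counting error, and none passed either test that uses the spread between tumours.

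The order of the tumours was uneven across the factors. Tumour 1 was highest for 20 of the 42 (47.6%), against 21.4% of expressed genes. Tumour 9 was highest for Gnl3 alone (2.38%), against 21.6% of expressed genes. It was lowest for 19 (45.2%), against 25.5%. Tumour 5 was highest for 10 and lowest for 3, against 21.2 and 20.3% of expressed genes. Tumour 10 was highest for 11 and lowest for 16, against 35.8 and 32.4% of expressed genes. The median deviation of the factors from their own 4-tumour means was 0.14, 0.09, -0.18 and -0.04 log2 units in tumours 1, 5, 9 and 10, against -0.01, 0.00, -0.04 and 0.02 for all expressed genes. In tumours 1, 5, 9 and 10, 33, 29, 5 and 18 of the 42 lay above their own mean, against 49, 49.9, 46 and 51.2% of expressed genes.

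The count of low factors in tumour 9 depended on the scaling. With total counts alone, tumour 9 was lowest for 7 factors and tumour 10 for 30, against 14.8 and 53.3% of expressed genes, while tumours 1 and 5 were lowest for 2 and 3, against 13.8 and 18.1%. Without tumour 10, tumour 9 was lowest for 32 of the 42, against 41.7% of expressed genes. Without tumour 1, tumour 5 was highest for 23 of the 42, against 32.8%, and tumour 9 for 5, against 28.2%. With total counts alone, tumour 1 was highest for 27 of the 42, against 29.6% of expressed genes, tumour 5 for 8, against 20.7%, tumour 9 for 5, against 29.6%, and tumour 10 for 2, Nhp2 and Ddx10, against 20%. Without tumour 9, tumour 10 was lowest for 25, against 42.2%.

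**Figure D2:**
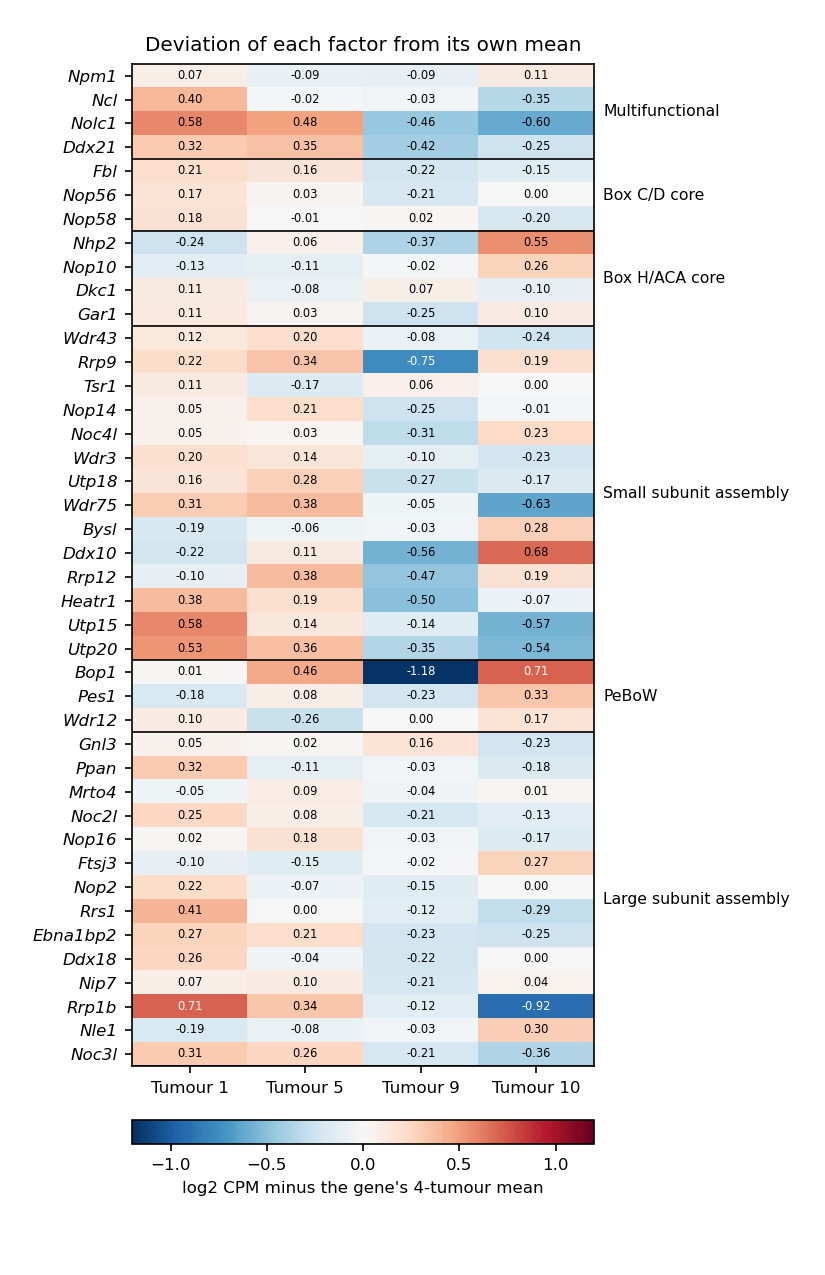
Deviation of each factor's log2 CPM from its own 4-tumour mean, in log2 units, with tumours as columns, genes grouped by role as lines and red for above and blue for below the mean. Tumour 9 is above the mean for 5 of the 42 factors, and the strongest blue cell is Bop1 in tumour 9 (-1.18).

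The RNA of marker genes of cell types and of proliferation also differed between the same tumours, with TMM scaling. In tumour 9, all 10 neutrophil and 9 of 9 expressed erythroid markers were highest, with summed levels of 567 and 796 CPM, against 12.6 to 25.1 and 83.7 to 118 CPM in the other tumours. The macrophage list was highest there for 7 of 8 expressed genes and the endothelial list for 5 of 5. The fibroblast list was highest there for 5 of 6. Of all expressed genes, 21.6% were highest in tumour 9. The cholangiocyte markers summed to 18.3, 64.2, 5.97 and 1.19 CPM and the T cell markers to 1.21, 1.14, 3.78 and 3.30 CPM in tumours 1, 5, 9 and 10. Of the 6 markers in each of these lists, 4 and 1 had a mean of at least 1 CPM. The 10 proliferation markers summed to 1698, 1731, 1454 and 1167 CPM in tumours 1, 5, 9 and 10. Of these 10 markers, 8 were lowest in tumour 10, against 32.4% of expressed genes. The hepatocyte list was highest in tumour 10 for 8 of 10 genes, against 35.8% of expressed genes. None of these markers was at 0 in any tumour, apart from 1 of 6 cholangiocyte markers in tumour 10. The part of other cells in the levels of the nucleolar factors was not tested, and in bulk tissue fewer cells of a type and less RNA per cell cannot be told apart.

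Among the multifunctional nucleolar proteins, Npm1 was, with TMM scaling, even across the tumours and Ncl less so. With total counts alone Npm1 was no longer highest in tumour 10. Npm1, or nucleophosmin (NM_008722, GRCm38.p6 chromosome 11, 33152498 to 33164142, minus strand), is a histone chaperone that also takes part in the export of ribosomal subunits. Its levels were 1972, 1764, 1756 and 2021 CPM in tumours 1, 5, 9 and 10, averaging 1878 ± 138 (SD, n = 4). Ncl, or nucleolin (NM_010880, chromosome 1, 86344719 to 86359455, minus strand), binds ribosomal RNA and its chromatin. Its levels were 2425, 1813, 1806 and 1448 CPM, averaging 1873 ± 405 (SD, n = 4). Tumours 5 and 9 were almost equal for Ncl, tumour 1 was above them and tumour 10 below. The Ncl row is 8257 bases long and that of Npm1 1422, so per kilobase Ncl had 227 ± 49.1 and Npm1 1321 ± 97.04 CPM (SD, n = 4). Within a library, where no scaling enters, the ratio of Ncl to Npm1 per kilobase was 0.212, 0.177, 0.177 and 0.123 in tumours 1, 5, 9 and 10.

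Nolc1 and Ddx21 were high in tumours 1 and 5 and low in tumours 9 and 10. Nolc1, a snoRNP chaperone also called Nopp140 (NM_001039351, chromosome 19, 46075847 to 46085543, plus strand), had 509, 476, 249 and 224 CPM. Tumours 1 and 5 lay far above tumours 9 and 10, and the whole range was 2.27-fold. Its 4 transcript rows had the same counts, so isoforms could not be told apart. Ddx21, an RNA helicase that links ribosomal RNA transcription with its processing, had 450, 460, 270 and 304 CPM in tumours 1, 5, 9 and 10. Neither gene passed the edgeR quasi-likelihood test in any tumour, and the lowest adjusted p of Nolc1 was 0.923, in tumour 10.

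The 3 proteins of the box C/D core among the 42 factors varied little between the tumours with TMM scaling. Fbl, or fibrillarin, the methyltransferase of this class, had 335, 322, 247 and 261 CPM in tumours 1, 5, 9 and 10. The scaffold proteins Nop56 and Nop58 had 381, 348, 295 and 341 CPM and 250, 220, 224 and 193 CPM. Tumour 1 was highest for all 3, and the highest tumour exceeded the lowest by 1.36, 1.29 and 1.30 times. Per kilobase they averaged 251 ± 37.9, 180 ± 18.9 and 112 ± 11.9 CPM (SD, n = 4 each). The ratio of Fbl to Nop58 per kilobase within a library was 2.28, 2.50, 1.88 and 2.31. Nhp2l1, now named Snu13, the remaining core protein of the class and no member of the 42, varied more. It had 168, 201, 107 and 121 CPM in tumours 1, 5, 9 and 10, a 1.88-fold range.

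In the box H/ACA core, with TMM scaling, Nhp2 had the widest range, 1.90-fold, and Dkc1 the narrowest, 1.15-fold. This order of ranges depends on the scaling. Dkc1, or dyskerin, the pseudouridine synthase, had 193, 170, 188 and 167 CPM in tumours 1, 5, 9 and 10, and Gar1 had 85.9, 81.0, 66.8 and 85.2. Nop10, a small protein that binds Dkc1, had 121, 122, 130 and 159 CPM, and with total counts alone it was highest in tumour 9. Nhp2, an RNA-binding subunit (NM_026631, chromosome 11, 51619773 to 51623718, plus strand), had 280, 345, 256 and 486 CPM, with tumour 10 above the other 3. In tumour 10 against the other 3, Nhp2 differed by a log2 fold change of 0.73, with an edgeR quasi-likelihood p of 0.042 and an adjusted p of 0.642. Per kilobase and within a library, Nhp2 stood to Dkc1 as 4.05, 5.67, 3.80 and 8.13 to 1 in tumours 1, 5, 9 and 10, and Gar1 to Dkc1 as 0.982, 1.05, 0.783 and 1.12 to 1. Nhp2 shares 44 exonic bases with Rmnd5b on the opposite strand, and the counting is not stated to use strand.

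**Figure D3:**
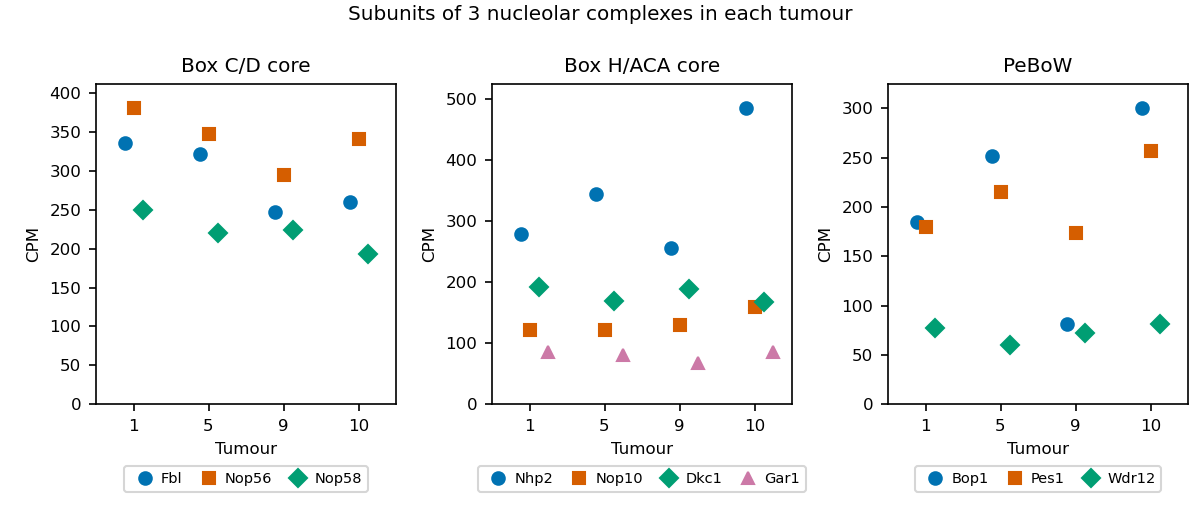
CPM of the subunits of the box C/D core, the box H/ACA core and the PeBoW complex in tumours 1, 5, 9 and 10, with 1 symbol per gene and axes that start at 0. Nhp2 is highest in tumour 10 (486 CPM) and Bop1 is lowest in tumour 9 (81.1 CPM), while Dkc1 keeps between 167 and 193 CPM with TMM scaling.

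The PeBoW complex held Bop1, with TMM scaling the gene with the widest range of all 42 factors. Its subunits Pes1, Bop1 and Wdr12 work together in processing the precursor of the large subunit RNA. Bop1 (NM_013481, chromosome 15, 76452988 to 76477249, minus strand) had 185, 252, 81.1 and 301 CPM in tumours 1, 5, 9 and 10, which spans 3.71-fold. With total counts alone, Bop1 and Pes1 were highest in tumour 5 instead of tumour 10, and both stayed lowest in tumour 9. Tumour 9 was below the other 3, with an edgeR quasi-likelihood log2 fold change of -1.60, a p of 0.0208 and an adjusted p of 0.499. Pes1 had 180, 215, 174 and 257 CPM, in which tumour 9 was also lowest but close to tumour 1. Wdr12 had 77.2, 60.1, 72.2 and 80.9 CPM, and tumour 5 was lowest. Within a library and per kilobase, Bop1 stood to Wdr12 as 3.004, 5.26, 1.41 and 4.66 to 1, and to Pes1 as 1.21, 1.38, 0.549 and 1.38 to 1. Of the 20 expressed genes next to Bop1 in genome order, 10 on each side, 11 were lowest in tumour 9, against 25.5% of expressed genes. These 20 genes were looked at after the values of Bop1 were seen. Their median deviation in tumour 9 was -0.28 against -1.18 for Bop1, and -0.12, 0.17 and 0.30 in tumours 1, 5 and 10. Rrp9 and Ddx10 had the next lowest deviations in tumour 9 (-0.75 and -0.56), and their neighbours had medians of -0.01 and 0.02 there. The Bop1 row shares 50 exonic bases with Mroh1 on the opposite strand.

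Small subunit factors had a median SD of log2 CPM of 0.32 over 14 genes. The most abundant per kilobase were Wdr43, Rrp9 and Tsr1. Wdr43, part of the module that binds the growing precursor first, had 226, 238, 196 and 176 CPM in tumours 1, 5, 9 and 10. Rrp9, which is specific to the U3 snoRNP that guides early cleavage, had 93.2, 101, 47.4 and 91.3 CPM, and tumour 9 stood below the rest. Set against the other 3, tumour 9 gave by the quasi-likelihood test of edgeR a log2 fold change of -1.01, a p of 0.0278 and an adjusted p of 0.556. Tsr1, a late factor of the 40S subunit, was with TMM scaling the most even of the group. It had 140, 115, 135 and 129 CPM and an SD of log2 CPM of 0.12. It shares 1240 exonic bases with Srr on the opposite strand.

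With TMM scaling, Ddx10 had the largest spread of the small subunit group, and its order of tumours was that of Bop1 at the extremes. This RNA helicase had 54.6, 68.7, 43.1 and 102 CPM in tumours 1, 5, 9 and 10, with tumour 10 highest and tumour 9 lowest. In tumour 10 against the other 3 it had a log2 fold change of 0.88, an edgeR quasi-likelihood p of 0.0362 and an adjusted p of 0.609. Utp20, Utp15 and Wdr75, named because they too passed the 2-fold range after their values were seen, had the opposite extreme, with tumour 10 lowest. Utp20, a long scaffold protein, had 104, 92.2, 56.2 and 49.4 CPM in tumours 1, 5, 9 and 10. Utp15 had 70.7, 52.1, 42.8 and 31.9 CPM, and Wdr75 had 71.5, 75.0, 55.8 and 37.3, both as parts of the same early module as Wdr43. Wdr75 in tumour 10 had a log2 fold change of -0.85, an edgeR quasi-likelihood p of 0.0328 and an adjusted p of 0.589. The other 7 of the group, Nop14, Bysl, Heatr1, Wdr3, Rrp12, Noc4l and Utp18, had ranges from 1.35-fold for Wdr3 to 1.84-fold for Heatr1. Heatr1, of the early module as well, had 108, 94.5, 58.5 and 78.9 CPM in tumours 1, 5, 9 and 10, and Bysl, a late factor, had 74.3, 81.2, 83.2 and 103. With total counts alone Bysl was highest in tumour 9 instead of tumour 10.

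Large subunit factors had, with TMM scaling, a median SD of log2 CPM of 0.20 over 14 genes, and Rrp1b had the largest, 0.70. Gnl3, or nucleostemin, a GTPase of proliferating cells, had 231, 226, 250 and 190.5 CPM in tumours 1, 5, 9 and 10. Ppan had 218, 163, 171 and 155 CPM. Mrto4, which holds the place of a stalk protein on the pre-60S particle, was with TMM scaling the most even of all 42. It had 114, 126, 115 and 119 CPM and an SD of log2 CPM of 0.06. Its 2 transcript rows had the same counts. Rrp1b, a nucleolar and chromatin protein (NM_028244, chromosome 17, 32036162 to 32062865, plus strand), had 182, 141, 102 and 59.2 CPM, a 3.08-fold range with tumour 10 lowest. In tumour 10 against the other 3 it had a log2 fold change of -1.26, an edgeR quasi-likelihood p of 0.0244 and an adjusted p of 0.532.

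The other 10 large subunit factors differed between highest and lowest tumour by 1.24-fold for Nip7 to 1.63-fold for Rrs1. The Noc2l, Nop2, Ebna1bp2, Rrs1, Ddx18 and Noc3l genes were highest in tumour 1. The members given by value here, like Heatr1 and Bysl, were chosen after their values were seen. Noc2l had 268, 238, 195 and 205 CPM in tumours 1, 5, 9 and 10, and Rrs1, which helps bring the 5S RNA into the large subunit, had 137, 104, 94.8 and 84.2. Nop2, a methyltransferase of the large subunit RNA and a gene with the E-box shown above, had 177, 145, 137 and 152 CPM. Ftsj3, another RNA methyltransferase, and Nle1 were highest in tumour 10, at 247 and 50.8 CPM, against at most 202 and 40.4 CPM in the other tumours. With total counts alone both were highest in tumour 9 instead. Nop16 and Nip7 were highest in tumour 5, at 145 and 87.6 CPM. Noc3l, a partner of Noc2l in yeast, had the lowest level per kilobase of all 42, with 32.4, 31.2, 22.5 and 20.3 CPM.

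**Figure D4:**
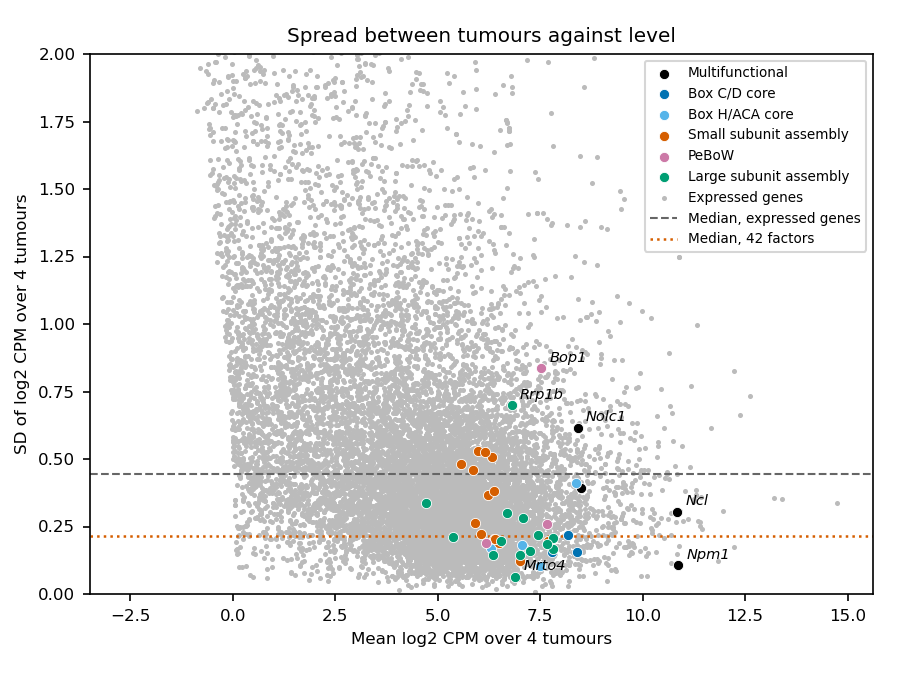
SD of log2 CPM over the 4 tumours against mean log2 CPM for the 42 factors (coloured by role) and for all expressed genes (grey), with the medians as lines; 556 expressed genes with an SD above 2 are not drawn. The factors' median (0.21) lies below that of the expressed genes (0.45), and Bop1, Rrp1b and Nolc1 lie above both.

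Long transcripts among the factors leaned towards tumour 1 and away from tumour 10. Across the 42 genes, Spearman's rho of transcript length with the deviation was 0.40, 0.33, -0.14 and -0.40 in tumours 1, 5, 9 and 10, against 0.23, 0.14, 0.06 and -0.27 across all expressed genes. These are correlations across genes that share libraries, and they are given as a description. The 16 factors with rows of at least 3000 bases had median deviations of 0.25 in tumour 1 and -0.23 in tumour 10, against 0.11 and 0.00 for the 26 shorter ones. In tumour 9 both classes lay at -0.18. Among all expressed genes the long ones had medians of 0.09 in tumour 1, 0.00 in tumour 9 and -0.15 in tumour 10, and the short ones -0.09, -0.06 and 0.15. The rows of Ncl, Utp20, Rrp1b and Ddx21 belong to the long class, and the part of length in their differences between tumours 1 and 10 was not tested.

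**Figure D5:**
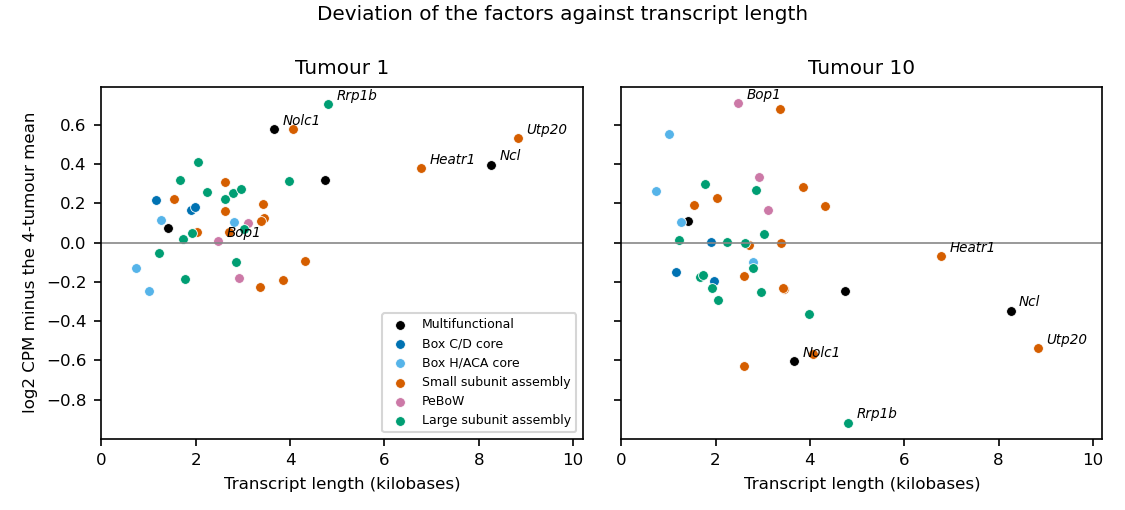
Deviation of log2 CPM from the 4-tumour mean against transcript length in kilobases for the 42 factors, in tumour 1 (left) and tumour 10 (right), coloured by role. Ncl and Utp20, the longest rows, lie above 0 in tumour 1 and below 0 in tumour 10, and Bop1 is highest in tumour 10.

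Shared sequence limits some of these values. In GENCODE M21, 17 of the 42 genes share exonic bases with a gene on the opposite strand, and 13 have a transcript elsewhere that matches over at least 300 bases at 90% identity or more. They include Npm1, with 8 such genes, and Nop56, with 5. The 18 factors with neither had median deviations of 0.20, 0.12, -0.21 and -0.17 log2 units in tumours 1, 5, 9 and 10, and tumour 9 was highest for 0 of them, against 21.6% of expressed genes. Tumour 9 was lowest for 7 of the 18 and tumour 10 for 9, against 25.5 and 32.4% of expressed genes, so the order of these counts was the reverse of that over all 42.

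A wider list of 99 other ribosome assembly factors was, with TMM scaling, also low in tumour 9. Its median deviation was 0.09, 0.07, -0.23 and 0.07 log2 units in tumours 1, 5, 9 and 10, and 52 of the 99 (52.5%) were lowest in tumour 9, against 25.5% of expressed genes. With total counts alone, 22 of the 99 were lowest in tumour 9, against 14.8%, and 62 in tumour 10, against 53.3%. Tumour 10 was highest for 39 (39.4%), near the 35.8% of expressed genes. The edgeR quasi-likelihood test took 0 of the 99 in each tumour, and the DESeq2 Wald test took Wdr46, Ddx27 and Exosc5 in tumour 10 (3.03%), against 10.4% of expressed genes. The highest mean CPM, not divided by length, belonged to Rrp1, Rsl1d1 and Eif6, with 296 ± 63.5, 264 ± 41.2 and 264 ± 96.1 CPM (SD, n = 4 each). The largest spreads were those of Exosc5, Naf1 and Dhx37. Exosc5, a subunit of the RNA exosome that trims ribosomal RNA, had 56.8, 58.8, 74.6 and 184 CPM in tumours 1, 5, 9 and 10, with tumour 10 well above the rest. Naf1, which assembles box H/ACA particles, had 54.6, 47.8, 35.0 and 19.0 CPM, and Dhx37, a helicase of the small subunit processome, had 69.2, 84.5, 30.6 and 65.9.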

How the data were processed

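Poly-A RNA of 4 tumours was sequenced from TruSeq libraries, 1 library each. The deposited tables hold raw read counts, FPKM and TPM values for 33984 transcript rows of 24063 gene symbols, per the file headers. Per the submitters' processing notes, FastQC 0.11.8 was run and GRCm38 was the build. Which aligner, counter and strand setting were used is not given in the sources used here. The deposited counts were used for all tests and the authors' FPKM and TPM values only to check transcript length and unit. The transcript row with the highest mean count stood for each symbol. Genes with a mean of at least 1 CPM (13129) were tested with R 4.3.3, edgeR 4.0.16 (TMM, prior count 2, quasi-likelihood test of each tumour against the other 3, Benjamini-Hochberg adjustment over genes and tumours) and, as an alternative, DESeq2 1.42.0. Similar transcripts were found with minimap2 2.31-r1302. Scripts were tested on simulated data. A library's floor of 3 counts was 0.0524 to 0.0892 CPM, and intervals of counting error cover counting alone. Values per tumour were named for both snoRNP cores, PeBoW and the multifunctional group, and in the other groups for the 3 highest per kilobase and the largest and smallest SD. Of the wider list, the 3 highest by CPM and the 3 most variable were named. Members and lists were chosen with earlier results of these data known. Alternatives were other scalings, summed rows, no filter, each tumour left out, other tests and subsets of the members.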

Additional observations from a re-analysis of the deposited data

How the results depend on the processing

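No paired analysis was possible because the series holds 1 group. The tests of 1 tumour against the other 3 leave 1 library in an arm. Their outcome under the other settings therefore does not show whether the factors were alike in the tumours. DESeq2 size factors moved no reported count or median beyond its limit. With total counts alone, tumour 1 was lowest for 2 factors, against 13.8% of expressed genes. Tumour 9 was then highest for 5 and lowest for 7, against 29.6 and 14.8%. Tumour 10 was highest for 2 and lowest for 30, against 20 and 53.3%. The median deviation in tumour 10 was -0.36 under this scaling, and -0.25 for the wider list. Leaving out the TMM factor shifts every gene in tumour 10 by about -0.32 log2 units, and both medians moved by about that much. Why the scalings differ in tumour 10 was not tested. Summing the transcript rows of a symbol gave a median member mean log2 CPM of 6.62, against 6.95 with 1 row, since reads counted on several rows of 1 gene then enter several times. Leaving out each tumour in turn, tumour 5 was highest for 10 to 23 factors (10 with all 4 tumours), against 26.9 to 34.3% of expressed genes (21.2%). It was lowest for 6 to 8 (3), against 26.2 to 32.1% (20.3%). Tumour 9 was highest for 1 to 5 (1), against 26.2 to 35.8% (21.6%). It was lowest for 20 to 32 (19), against 29.8 to 41.7% (25.5%). Tumour 1 was lowest for 3 to 9 (4), against 27.6 to 33.1% (21.8%). Tumour 10 was lowest for 16 to 25 (16), against 35.1 to 42.2% (32.4%). Fewer tumours are ranked then, so the shares of expressed genes rise as well. Depth did not limit the factors, with at least 682 counts each, whereas 4 tumours of 1 group and a biological coefficient of variation of 0.437 to 0.577 limit the tests. Strand could not be told apart, nor could isoforms of genes whose transcript rows held the same counts, such as Nolc1 and Mrto4. Other genes with several rows, such as Npm1, had counts that differed between rows, and isoforms were not compared.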
